A study of Mus musculus with 12 samples.

Results

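Pyramidal neurons are the excitatory projection cells of the hippocampus, and 7 genes that mark them were described here: Wfs1, Spink8, Fibcd1, Mpped1, Neurod6, Bok and Cpne7. They were taken by gene name from a table of 23352 gene entries, and each name had 1 entry. The choice was made with earlier results of these data known. All 7 passed the minimum of 1 FPKM (mapped fragments scaled to transcript length and library size) in at least 3 of the 12 libraries, as did 13945 genes in all. The libraries were made from poly-A RNA of the whole hippocampus of C57BL/6J mice. They formed 4 groups of 3, wild type at 3 months, N40K transgenic at 3 months, wild type at 12 months and N40K transgenic at 12 months. N40K is a shortened form of U1-70K, a protein of the U1 particle that recognises the start of introns during splicing. The transgenic mice came from 1 line, Tg396, in which a modified CaMKIIa promoter drives N40K in neurons, so pyramidal neurons are among the cells that such a promoter serves. The wild-type mice were littermates without the transgene. The study set the genotypes against each other at each age.

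The pyramidal cells of the hippocampus lie in one curved sheet that is divided into the fields CA1, CA2 and CA3, and the axons of CA3 cells excite those of CA1. Wfs1 encodes wolframin, a membrane protein of the endoplasmic reticulum, and marks CA1. Spink8 belongs to a family of secreted inhibitors of serine proteases, and Fibcd1 encodes a membrane receptor with a fibrinogen-like domain; both are known as CA1 markers. Mpped1 encodes a protein with a metallophosphoesterase domain, and Neurod6 encodes a basic helix-loop-helix transcription factor of cortical and hippocampal excitatory neurons. Bok is a member of the BCL2 family, and Cpne7 is a copine, a protein that binds membranes in the presence of calcium.

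Factors of the family of Neurod6 bind a short DNA motif called the E-box, spelled CANNTG, so the sequence just before the start of each gene was searched for those letters. A RefSeq promoter window on build GRCm38.p6 was found for 5 of the 7 genes, Wfs1, Fibcd1, Mpped1, Neurod6 and Bok, with 2 windows for Mpped1. The 250 bases before the start are printed 5′ to 3′ on the strand of the gene for 3 genes whose levels are described below, the 2 with the largest higher values in N40K libraries and the transcription factor itself. Capitals mark E-box letters.
Wfs1: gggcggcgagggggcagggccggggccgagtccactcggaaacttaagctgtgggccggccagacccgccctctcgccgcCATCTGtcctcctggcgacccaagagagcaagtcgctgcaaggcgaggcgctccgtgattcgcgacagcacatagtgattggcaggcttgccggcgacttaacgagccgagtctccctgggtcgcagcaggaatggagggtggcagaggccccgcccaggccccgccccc
Neurod6: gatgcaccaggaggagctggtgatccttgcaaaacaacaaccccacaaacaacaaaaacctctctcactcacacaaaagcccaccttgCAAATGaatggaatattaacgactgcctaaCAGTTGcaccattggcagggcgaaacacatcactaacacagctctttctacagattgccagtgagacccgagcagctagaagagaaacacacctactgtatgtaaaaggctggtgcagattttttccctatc
Bok: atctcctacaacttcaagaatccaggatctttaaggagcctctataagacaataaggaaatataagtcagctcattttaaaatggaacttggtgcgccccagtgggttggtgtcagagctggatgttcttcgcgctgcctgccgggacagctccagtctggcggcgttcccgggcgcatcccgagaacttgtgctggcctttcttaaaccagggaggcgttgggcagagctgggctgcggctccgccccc
The Wfs1 window lies at chr5:36988983-36989232 on the minus strand and holds 1 match, CATCTG, which reads CAGATG on the other strand and begins 170 bases before the start. The Neurod6 window lies at chr6:55681264-55681513 on the minus strand and holds 2 matches, CAAATG at 162 and CAGTTG at 132 bases before the start. The Bok window, at chr1:93685325-93685574 on the plus strand, holds 0 matches. Fibcd1 and the first Mpped1 window also hold 0, and the second Mpped1 window holds 1. CANNTG reads the same on both strands and occurs in 66.2% of all 32851 windows of this length, and CAGATG or CATCTG in 14.4%. A match is a run of letters, not a measured binding site.

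Snrnp70, the gene of U1-70K, had a mean of 173 ± 10.5 FPKM in wild type and 392 ± 13.1 in N40K libraries at 3 months, and 122 ± 23.0 against 294 ± 31.9 at 12 months (SD, n = 3), so it followed the labels in every library. The depth recovered from the steps of low FPKM values ran from 39.8 to 97.0 M (mega) reads. Counting noise was small for genes at the levels described here, since 1 read on 1 kilobase was worth at most 0.0251 FPKM. In 3 of the 12 libraries, wild type replicates 2 and 3 and N40K replicate 3 at 3 months, Xist stood between 13.5 and 17.3 FPKM. It was at most 0.112 FPKM in the other 9, so sex was uneven between the genotypes at 3 months and between the ages. Names of the libraries fall into separate number series for the 2 ages, so age and any difference in preparation between them cannot be told apart. The labels do not say whether replicates of a group came from separate mice, and p-values measure the spread between these samples.

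All 7 genes were well expressed in the tissue, as its label implies. Their mean levels over the 12 libraries lay between the 77.3 percentile (Fibcd1) and the 97.0 percentile (Cpne7) of the genes tested. FPKM is a level per transcript length, so the genes can be ordered within a group. In wild type at 3 months the order was Cpne7 (119.6 ± 29.1 FPKM), Neurod6 (76.7 ± 3.02), Mpped1 (53.0 ± 3.38), Bok (46.8 ± 3.37), Wfs1 (34.9 ± 2.30), Spink8 (30.9 ± 3.73) and Fibcd1 (23.4 ± 2.51). In that group the ranges over libraries overlapped between Mpped1 and Bok and between Wfs1 and Spink8. The order was the same in wild type at 12 months, where Bok, Wfs1, Spink8 and Fibcd1 each overlapped the next in line. In N40K libraries Bok moved to the second place at 3 months, where its range overlapped that of Neurod6, and Spink8 was the lowest of the 7 at both ages, overlapping Fibcd1.

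**Figure D1:**
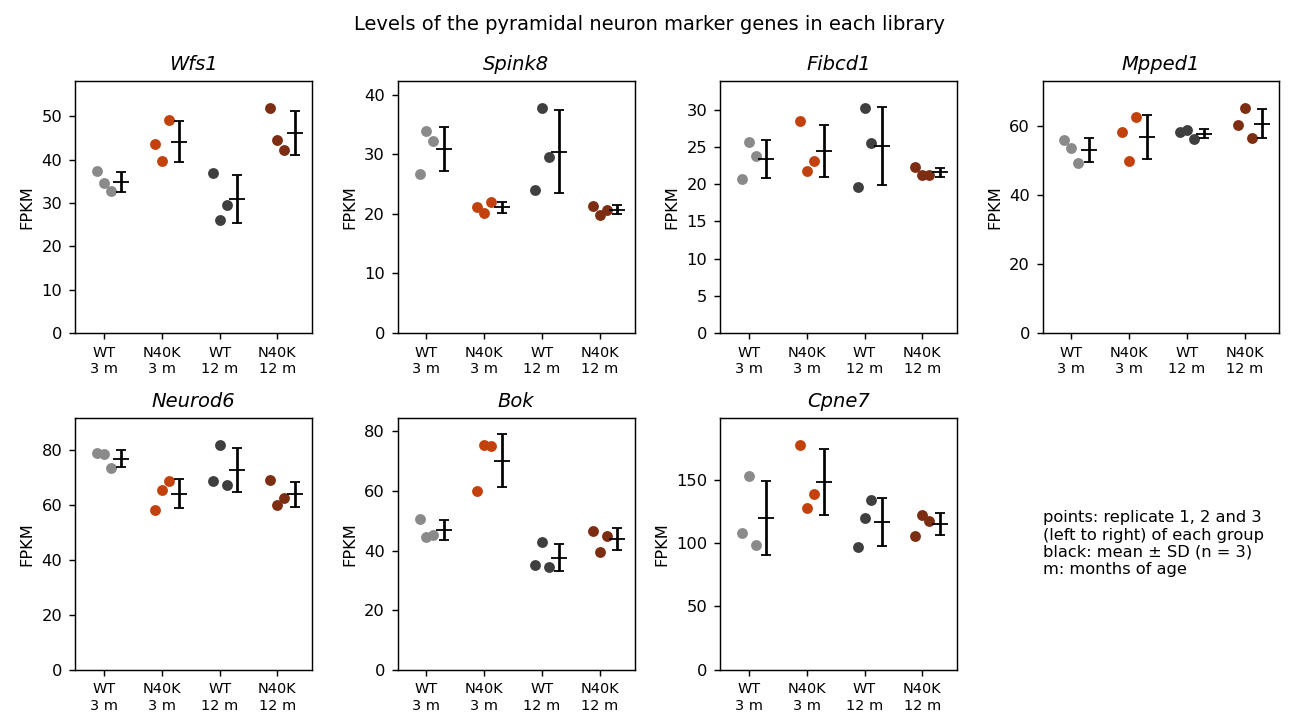
FPKM of the 7 genes in each of the 12 libraries, 1 panel per gene, with groups along the horizontal axis, points for libraries and bars for group means with SD. Spink8 lies lower and Wfs1 higher in N40K than in wild type at both ages, and Bok is highest in N40K at 3 months.

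The 7 markers did not move as 1 block between genotypes. At 3 months Bok rose and Spink8 fell in N40K libraries, so 2 of 7 were called (adjusted p under 0.05 in limma over all genes tested). Of all genes 11.4% were called, 7.95% higher and 3.49% lower. At 12 months Wfs1 rose and Spink8 fell, again 2 of 7, where 18.9% of all genes were called, 11.2% higher and 7.71% lower. Averaged over both ages, Wfs1 and Bok rose and Spink8 and Neurod6 fell, 4 of 7 where 25% of all genes were called, 15.5% higher and 9.54% lower, while Fibcd1, Mpped1 and Cpne7 were not called. The share of higher genes among all calls was 69.5% at 3 months and 61.9% on average, and 54.4% and 49.8% with quantile normalization. The median log2 difference of the 7 genes was 0.09 at 3 months and -0.01 at 12 months, and over all genes tested it was 0.02 and 0.01. In bulk tissue, fewer cells of a type and less RNA per cell cannot be told apart.

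Wfs1 stood at 37.3, 34.6 and 32.8 FPKM in wild type and at 43.7, 39.6 and 49.0 in N40K libraries at 3 months. The 12-month values were 36.9, 26.0 and 29.6 (wild type) and 51.9, 44.6 and 42.1 (N40K). Every N40K library lay above every wild-type library of its age. The mean ratio was 1.26 at 3 months, a log2(FPKM + 1) difference of 0.33 ± 0.12 (SE) that was not called (adjusted p = 0.111). At 12 months the mean ratio was 1.50 and Wfs1 rose by 0.58 ± 0.12 (adjusted p = 0.00789). That call held in each of the 25 alternatives tried, with differences between 0.46 and 0.71. Averaged over both ages the difference was 0.45 ± 0.08 (adjusted p = 0.00288).

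Spink8, a marker of the same field, went the other way. It stood at 26.7, 33.9 and 32.2 FPKM in wild type and at 21.1, 20.2 and 21.9 in N40K libraries at 3 months. Older wild-type libraries had 24.1, 37.8 and 29.6, and older N40K libraries 21.4, 19.9 and 20.7. All 6 N40K libraries lay within a narrow band below every wild-type library. Spink8 fell by 0.53 ± 0.13 on the log2 scale at 3 months (adjusted p = 0.0249) and by 0.52 ± 0.13 at 12 months (adjusted p = 0.0190), with mean ratios of 0.682 and 0.678. Averaged over both ages the difference was -0.52 ± 0.09 (adjusted p = 0.00193). The call at 3 months ended with Xist as a covariate (-0.47, adjusted p = 0.0536). It also ended without wild-type replicate 2 (0.0977) or 3 (0.0706) or without N40K replicate 1 (0.0550), 2 (0.0831) or 3 (0.0576), each an adjusted p, and the call at 12 months ended without N40K replicate 2 (0.0663) or with the 12-month groups fitted alone (0.0563).

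Neurod6, the transcription factor, was lower in N40K libraries by a smaller amount. It stood at 78.6, 78.3 and 73.2 FPKM in wild type and at 58.1, 65.3 and 68.4 in N40K at 3 months, with no overlap. At 12 months the groups overlapped, at 68.5, 81.8 and 67.2 in wild type and 68.9, 59.9 and 62.4 in N40K. The log2 difference was -0.26 ± 0.08 at 3 months (adjusted p = 0.0665) and -0.18 ± 0.08 at 12 months (adjusted p = 0.149), so neither age was called alone. Without replicate 2 of wild type at 12 months the 3-month value was called (adjusted p = 0.0236), as it was with quantile normalization (adjusted p = 0.0436). Averaged over both ages Neurod6 fell by 0.22 ± 0.06 (adjusted p = 0.0178).

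Bok, of the BCL2 family, had the largest rise of the 7 at 3 months. It stood at 50.7, 44.5 and 45.3 FPKM in wild type and at 59.9, 75.6 and 75.1 in N40K. At 12 months it stood at 35.3, 42.7 and 34.6 in wild type and at 46.7, 39.6 and 44.9 in N40K. The genotypes were apart at 3 months, and at 12 months 1 N40K library lay below the highest wild-type one. The mean ratio was 1.50 at 3 months, a rise of 0.57 ± 0.10 on the log2 scale (adjusted p = 0.00628). The 12-month ratio was 1.17, a difference of 0.22 ± 0.10 that was not called (adjusted p = 0.167). Averaged over both ages Bok rose by 0.39 ± 0.07 (adjusted p = 0.00293).

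The other 3 genes were not called between genotypes at either age. Cpne7, the copine, stood at 108, 153 and 98.2 FPKM in wild type and at 178, 128 and 139 in N40K at 3 months. At 12 months it stood at 96.6, 119.6 and 134 in wild type and at 106, 122 and 118 in N40K. The genotypes overlapped at both ages, with log2 differences of 0.32 ± 0.17 (adjusted p = 0.275) and -0.01 ± 0.17 (adjusted p = 0.972). In GENCODE M21 Cpne7 overlaps the microRNA gene Mir7080 on the same strand, whereas the other 6 genes overlap none. Whether this affected the fragments counted for Cpne7 was not tested. Fibcd1, the fibrinogen-domain receptor, ranged from 20.7 to 25.7 FPKM in wild type and from 21.8 to 28.4 in N40K at 3 months. At 12 months it ranged from 19.7 to 30.2 and from 21.2 to 22.3. Its log2 differences were 0.06 ± 0.14 (adjusted p = 0.843) and -0.19 ± 0.14 (adjusted p = 0.350). Mpped1 ranged from 49.3 to 56.0 FPKM in wild type and from 49.7 to 62.5 in N40K at 3 months, and from 56.2 to 58.7 and 56.5 to 65.2 at 12 months. Its log2 differences were 0.09 ± 0.08 (adjusted p = 0.529) and 0.07 ± 0.08 (adjusted p = 0.575).

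**Figure D2:**
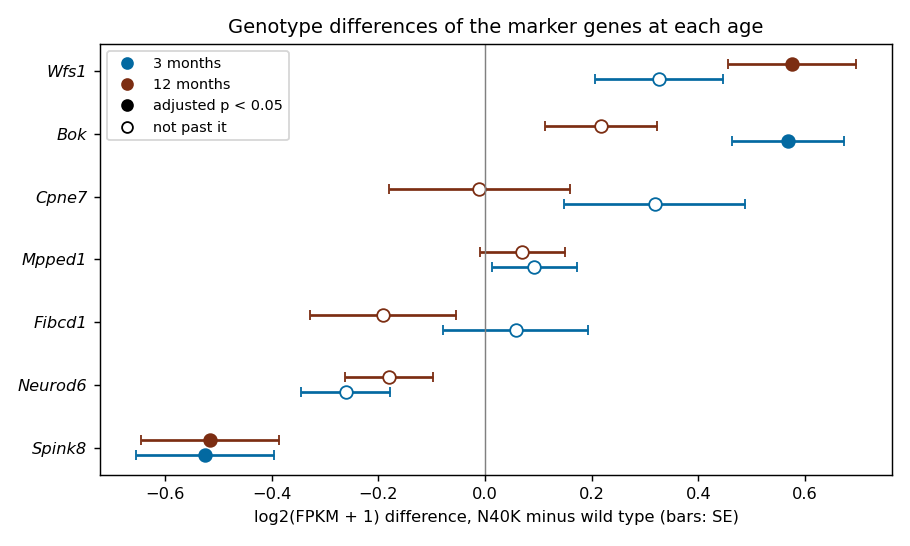
Difference between N40K and wild type on the log2(FPKM + 1) scale with its SE for each of the 7 genes, shown separately for each age. Wfs1 and Bok lie above 0 and Spink8 and Neurod6 below 0 at both ages, while Fibcd1 and Cpne7 change sign.

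Without overlap between genotypes were 4 of the 7 genes at 3 months (Bok, Wfs1, Spink8 and Neurod6) and 2 at 12 months (Wfs1 and Spink8). Over all genes tested these shares were 31.9% and 38.8%. Wfs1 and Spink8 were apart in the same direction at both ages, which 16% of all genes were. When the 3 libraries with Xist reads were left out, 1 wild-type library remained at 3 months, whose spread was taken to be like that of the other groups. In that fit the averaged differences were 0.36 for Wfs1 (adjusted p = 0.0729), -0.44 for Spink8 (0.0516), -0.26 for Neurod6 (0.0702) and 0.31 for Bok (0.0812), and none was called. At 3 months Bok was then 0.40 (adjusted p = 0.309), Wfs1 0.15 (adjusted p = 0.766) and Spink8 -0.36 (adjusted p = 0.463).

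Ratios of 2 members within a library do not depend on how that library was scaled. Of the pairs of a higher and a lower gene, 2 were computed after their values were seen, so they are given without a test. At 3 months the wild-type ratios of Wfs1 to Spink8 were 1.40, 1.02 and 1.02, and the N40K ratios 2.07, 1.96 and 2.23. The 12-month ratios were 1.54, 0.689 and 1.00 without the transgene and 2.43, 2.24 and 2.03 with it. The lowest N40K ratio of either age was above the highest wild-type ratio. This had to follow, since the values of each of these genes were already apart between genotypes. For Bok to Neurod6 the 3-month ratios were 0.645, 0.569 and 0.618 (wild type) and 1.03, 1.16 and 1.10 (N40K). Older wild-type libraries had 0.515, 0.523 and 0.515 and older N40K libraries 0.678, 0.661 and 0.720, again without overlap within an age. At 3 months this too had to follow, since Bok and Neurod6 were each apart at that age.

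**Figure D3:**
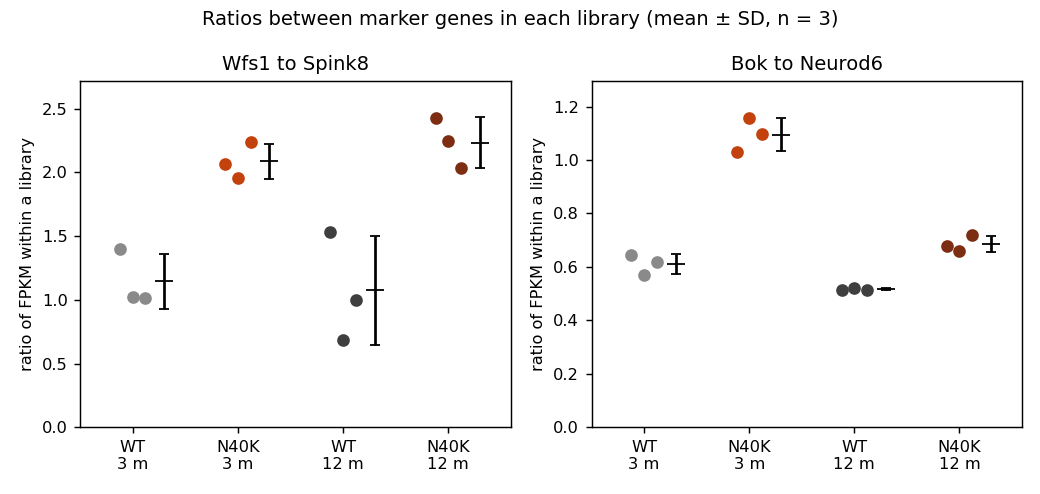
Ratio of Wfs1 to Spink8 and of Bok to Neurod6 FPKM in each library, by group, with bars for means and SD. Means of Wfs1 to Spink8 were 1.15 and 1.08 in wild type and 2.09 and 2.23 in N40K at 3 and 12 months, and those of Bok to Neurod6 were 0.611 and 0.518 against 1.10 and 0.687.

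Whether the genotype difference itself changed with age was tested as an interaction. It was called for 0 of the 7 genes by limma, against 0.0645% of all genes. At an unadjusted p under 0.05 were 1997 of all 13945 genes and 1 of the 7. That gene was Bok, whose genotype difference was lower at 12 than at 3 months by 0.35 ± 0.15 on the log2 scale (adjusted p = 0.317). For Wfs1 the interaction was 0.25 ± 0.17 (adjusted p = 0.522), and for Spink8 it was 0.01 ± 0.18 (adjusted p = 0.987). The calls at 1 age and not at the other for Wfs1 and Bok are therefore not shown to differ between the ages.

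Between the ages, Bok was the 1 gene of the 7 called, and it fell in both genotypes. From 3 to 12 months it fell by 0.32 ± 0.10 on the log2 scale in wild type (adjusted p = 0.0316) and by 0.66 ± 0.10 in N40K (adjusted p = 3.81e-04), with mean ratios of 0.802 and 0.623. Its ranges did not overlap between ages in either genotype. Over all genes 41.6% were called with age in wild type (29% lower) and 51.6% in N40K (36.5% lower), so a call with age was common. The call in N40K held in all 25 alternatives, and that in wild type in 13 of 25. In wild type it ended without replicate 1 (adjusted p = 0.111) or 3 (0.0528) of the 3-month group, without replicate 1 (0.0933) or 3 (0.109) of the 12-month group, and with median-ratio scaling (0.0986) or quantile normalization (0.0838). It also ended with each library's trend against transcript length (-0.19, adjusted p = 0.172) or GC content (-0.12, adjusted p = 0.390) removed, an alternative chosen after seeing the data, and with the replicate number as a block (adjusted p = 0.0511). The remaining losses were without the filter (0.0557), with Xist as a covariate (0.0987) and without the libraries with Xist reads (0.0846). Without replicate 1 of the 12-month group, Wfs1 was called lower with age in wild type (-0.32, adjusted p = 0.0365), where with all libraries it was -0.18 (adjusted p = 0.240).

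Ranges between ages were also apart for Mpped1 in wild type, higher at 12 months, and for Cpne7 in N40K, lower at 12 months, so 2 of 7 genes were apart in each genotype. The background was 50.3% in wild type and 62.8% in N40K. Mpped1 differed by 0.12 ± 0.08 in wild type (adjusted p = 0.245). It was called higher at 12 months in both genotypes once each library's trend against transcript length (0.25 and 0.26, adjusted p = 0.0377 and 0.0246) or GC content (0.28 and 0.31, adjusted p = 0.0207 and 0.0116) was removed, and in N40K with quantile normalization (0.24, adjusted p = 0.0260). Cpne7 differed by -0.35 ± 0.17 in N40K (adjusted p = 0.106), and was called with the N40K groups fitted alone (adjusted p = 0.0416). The shares of higher calls over all genes moved with the scaling. They were 30.3% of the calls in wild type and 29.3% in N40K, against 50.7% and 51.6% with median-ratio scaling.

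Other markers of the same cells gave few calls between genotypes. Of 24 further genes of CA1, CA2 and CA3 cells, 23 passed the minimum. Averaged over both ages 0 of them rose, 2 fell and 21 were not called, where 15.5% of all genes rose and 9.54% fell. Their median log2 difference was -0.03 against 0.01 for all genes. The 2 that fell were Ndst4 and Rgs14. Ndst4, an enzyme that modifies heparan sulfate and a CA1 gene, stood at 2.60 ± 0.265 FPKM in wild type against 1.79 ± 0.272 in N40K at 3 months, and at 4.02 ± 0.603 against 2.87 ± 0.214 at 12 months, and fell by 0.37 ± 0.10 on the log2 scale at each age (adjusted p = 0.0348 and 0.0257). Rgs14, a regulator of G protein signalling that marks CA2, fell by 0.18 ± 0.05 averaged over both ages (adjusted p = 0.0284). Neither gene is among the 7. Both were lower in N40K, as Spink8 and Neurod6 were, whereas Wfs1 and Bok were higher.

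Of 10 genes shared by excitatory neurons in general, 0 rose and 4 fell averaged over both ages, where 9.54% of all genes fell. Slc17a7, which loads glutamate into synaptic vesicles, stood at 371 ± 4.19 FPKM in wild type and 299 ± 16.9 in N40K at 12 months, and fell by 0.31 ± 0.06 (adjusted p = 0.00456). Zbtb18, a transcriptional repressor of developing excitatory neurons, fell by 0.25 ± 0.06 at 3 months (adjusted p = 0.0221). Camk2a, the kinase gene whose promoter was modified to drive N40K, fell by 0.20 ± 0.06 at 12 months (adjusted p = 0.0417). Nrn1, named after its values were seen, fell by 0.18 ± 0.05 averaged over both ages (adjusted p = 0.0289). The other 6 were not called and did not all point the same way. Emx1, a homeobox gene of the same neurons, had an averaged difference of 0.28 ± 0.10 (adjusted p = 0.0547), Camk2b one of 0.11 ± 0.05 (adjusted p = 0.111), Neurod2 0.08, Nrgn 0.03, Bhlhe22 0.00 and Tbr1 -0.15. The average of Bhlhe22 combined 0.28 at 3 months and -0.28 at 12 months (adjusted p = 0.0920 and 0.0678). Nrgn (0.20 and -0.14) and Neurod2 (0.17 and -0.01) also changed sign between the ages, without a call. Summed over the 10 genes, the 12-month libraries ran from 2101 to 2186 FPKM in wild type and from 1848 to 1989 in N40K. At 3 months the sums overlapped, at 2224 to 2429 in wild type and 2105 to 2478 in N40K.

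**Figure D4:**
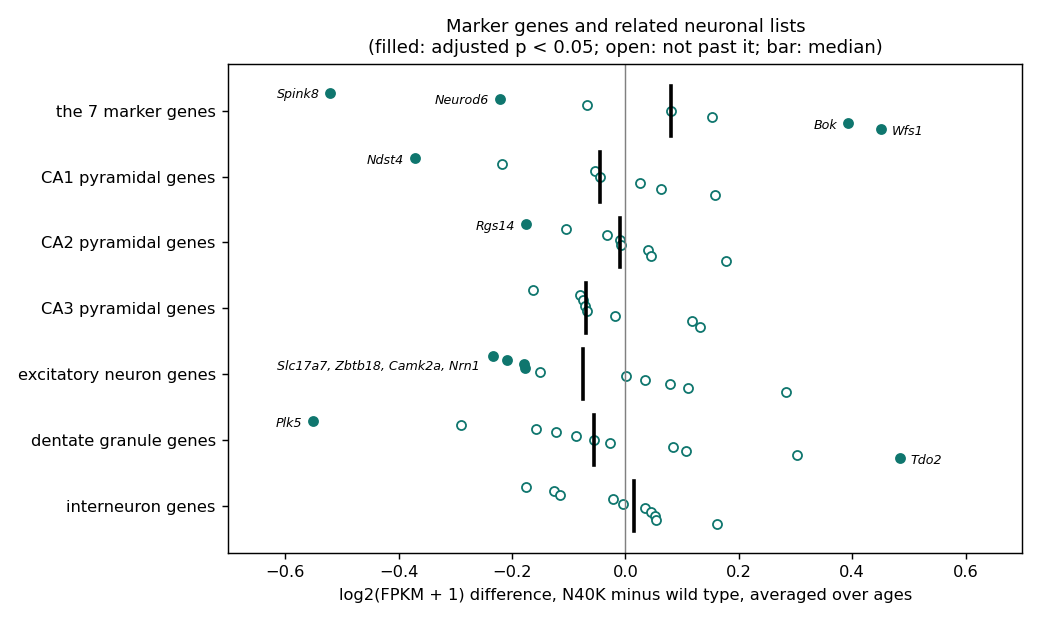
Difference between N40K and wild type on the log2(FPKM + 1) scale, averaged over ages, for each of the 7 marker genes and each tested gene of 6 other neuronal lists. Filled points passed the adjusted p threshold and short bars are list medians; the 7 genes spread to both sides of 0, and 4 of the 10 excitatory neuron genes are filled to the left.

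Markers of other cells in the hippocampus were measured beside these values. Of all genes tested, 15.5% were called higher and 9.54% lower averaged over both ages. These shares were 7.95% and 3.49% at 3 months, and 11.2% and 7.71% at 12 months. Of 11 genes of dentate granule cells, averaged over both ages, 1 rose (Tdo2) and 1 fell (Plk5). Of 10 interneuron genes and 8 astrocyte genes, 0 were called between genotypes at 3 months, at 12 months or averaged. Of 8 oligodendrocyte genes 1 fell on average (Mobp). Their summed level at 12 months ran from 1585 to 1718 FPKM in wild type and from 1427 to 1516 in N40K, without overlap, as for the excitatory neuron genes. At 3 months the oligodendrocyte sums overlapped, at 1780 to 2161 and 1577 to 2077. Of 8 microglia genes 1 fell at 12 months (Tmem119). Of 6 endothelial genes 4 rose at 12 months, when their summed level ran from 38.8 to 41.8 FPKM in wild type and from 52.4 to 55.8 in N40K. At 3 months that sum overlapped, at 58.1 to 66.6 and 60.2 to 64.7. The 7 choroid plexus genes varied most between libraries of a group. At 3 months their sum was 134 to 5941 FPKM in wild type and 81.4 to 1758 in N40K; the older groups spanned 1082 to 2212 and 30.2 to 3086, and 0 of them were called between genotypes by limma. For genes of neighbouring tissue, 0 of the 4 cortex genes tested and 1 of 6 thalamus genes (Rgs16, higher at 12 months) were called. At an unadjusted p under 0.05 in any of these 3 comparisons were 2 interneuron, 2 astrocyte, 0 choroid plexus and 0 cortex genes. Of all 13945 genes, 3552 were under it at 3 months, 4801 at 12 months and 5204 averaged, each comparison taken alone. No gene of these lists was listed at 0 throughout a group, and the part of such cells in the differences of the 7 markers was not tested.

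Likeness between profiles was measured as the root mean square distance between log2(FPKM + 1) values over the 12 libraries, each gene centred on its own mean. Among the 21 pairs of the 7 genes the closest were Spink8 and Neurod6 (0.198) and the farthest Wfs1 and Spink8 (0.554). Of all genes with enough spread of their own, the nearest to Wfs1 were Trpv6 (0.0936) and Gfm2 (0.107), and the nearest to Spink8 were BC030500 (0.104) and Stau2 (0.127). Stau2 stood at 32.7 ± 2.40 FPKM in wild type and 22.2 ± 1.48 in N40K at 3 months, and at 32.3 ± 2.56 and 22.7 ± 0.556 at 12 months. Gfm2 stood at 11.7 ± 0.296 and 15.2 ± 0.694 at 3 months, and at 10.4 ± 1.13 and 15.2 ± 0.475 at 12 months. Trpv6 was low, at 1.45 ± 0.276 and 2.22 ± 0.192 at 3 months and 1.31 ± 0.376 and 2.59 ± 0.165 at 12 months. At such levels the log2(FPKM + 1) scale understates change, so its distance to Wfs1 depends on that scale. Nearest to Bok were Gdf1 (0.115) and Vps37d (0.116), to Neurod6 Dkk3 (0.0526) and Snora81 (0.0584), and to Cpne7 Hap1 (0.120) and Pnck (0.124). For Fibcd1 they were Stk3 (0.0880) and Zdbf2 (0.0911), and for Mpped1 Pde2a (0.0574) and Ntm (0.0661). The mean profile of the 7, which varied little, lay nearest to Thumpd1 (0.0346), Epm2a (0.0457) and Slc14a1 (0.0465).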

How the data were processed

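The authors deposited 1 table of FPKM values (mapped fragments scaled to transcript length and library size) for the 12 libraries, and no column was left unmapped. Per the submitters' processing notes, STAR, BWA, CASAVA and build mm9 were used; their roles, the counting tool, the annotation and the strand setting are not given in the sources used here. Per the labels' protocols, poly-A libraries were made with TruSeq kits, and the extraction text speaks of tumor aliquots, unlike the tissue label. No library was a copy of another, as at most 0.0159% of values were identical in a pair. Depth was recovered from low FPKM steps of 916 olfactory receptor genes, where 54.5% to 76.9% of values lay within 0.02 of a whole read, so it is approximate and no count test was run. Transcript lengths and overlaps came by name from GENCODE M21 (93.6% of tested genes matched).

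Genes that reached 1 FPKM in 3 or more libraries were tested as log2(FPKM + 1), a scale that understates the change of low genes, in 1 limma 3.58.1 model (R 4.3.3) of 4 group means with a trended eBayes prior. Tests were two-sided, adjusted by Benjamini-Hochberg over all 13945 genes of a contrast, with a threshold of 0.05; every adjusted p is limma's. Of the 4 comparisons of 2 groups, the deviations of same-numbered libraries correlated above 0.1 in all 3 pairs for wild type at 3 and 12 months (0.25, 0.26 and 0.34) and not for the other 3 comparisons. They also did so between wild type at 3 months and N40K at 12 months (0.44, 0.25 and 0.72), which were not compared. The labels name no shared source behind the numbers. The procedure was tested on simulated data. Tables and plots were made in Python 3.11.15 (pandas 2.3.3, matplotlib 3.10.9).

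The members and lists were chosen with earlier results of these data known. Named are the 7 genes, Snrnp70, up to 3 genes of a list called in any contrast by smallest genotype p, the 3 nearest profiles to the mean of the 7 and the 2 nearest to each. The alternatives changed the pseudocount (0.1 or 0.5), the filter (none, or a mean of 5 FPKM) and the scaling (median-ratio or quantile). Others took Xist as covariate, dropped the libraries with Xist reads, used a robust eBayes prior or a replicate block, fitted only the groups compared, or left out each library. Removal of length and GC trends (lowess span 0.3) was added after seeing the data.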

Additional observations from a re-analysis of the deposited data

How the results depend on the processing

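Of 1036 comparisons of a gene's value with an alternative, 941 stayed on the same side of the threshold with the same direction, 26 lost a call, 9 gained one, and 60 were values without a call that changed sign; no called value reversed. Genes called at 3 months numbered 2, 1 with Xist as a covariate, 0 without the libraries with Xist reads, 3 with quantile normalization, and 1 to 3 with a library left out. At 12 months they numbered 2, 1 with those groups alone, and 1 to 2 with a library left out. Averaged over both ages they numbered 4, and 0 without the libraries with Xist reads. With age in wild type they numbered 1, and 0 with no filter, with Xist as a covariate, without the libraries with Xist reads, with quantile normalization or median-ratio scaling, and 0 to 1 with a library left out. With age in N40K they numbered 1, and 2 with quantile normalization, those groups alone, or the length or GC trend removed. The cause of these differences was not tested.

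Over 18 pairs of libraries with the same replicate number the correlation of deviations ran from -0.46 to 0.72, and 7 were above 0.1, as were 13 of 36 pairs with different numbers. With the replicate block the called genes numbered 2 at 3 months, 2 at 12 months, 4 on average, 0 for the interaction, 0 with age in wild type (Bok, adjusted p = 0.0511) and 1 with age in N40K.

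Over all genes, the calls at 3 months numbered 1596, and 137 without the libraries with Xist reads; leaving out wild-type replicate 1 or 2 or N40K replicate 2 or 3 gave 1015, 797, 874 and 892. At 12 months they numbered 2632, 1499 with those groups alone, and 1356 and 1418 without N40K replicate 1 or 2. On average they numbered 3493, and 1565 without the libraries with Xist reads; with age in wild type 5803, and 2730. Interaction calls numbered 9, and 0 to 162 over the alternatives, the highest without N40K replicate 1 at 3 months. Higher calls made up 69.5% at 3 months, and 53.5% with median-ratio scaling. Depth limits none of the 7 levels; 3 libraries a group limit the size of difference that can be called.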

Other observations

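Among wild-type libraries, replicate 1 had the lowest Spink8 and Fibcd1 and the highest Wfs1 of its group at both ages, and replicate 2 had the highest Spink8 and Fibcd1. At 12 months the coefficient of variation of Spink8 was 22.7% in wild type and 3.64% in N40K, and the SD of Fibcd1 was 5.29 and 0.579 FPKM. At 3 months the coefficient of variation of Fibcd1 was larger in N40K, at 14.3% against 10.7% in wild type, while that of Spink8 was 12.1% in wild type and 4.12% in N40K. These differences in spread were seen in the data and were not tested. Replicate 2 of wild type at 12 months also had the lowest Wfs1 of the 12 libraries and the highest Neurod6.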
